A study of Mus musculus with 12 samples.

Results

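The activin, inhibin and follistatin axis was followed through 10 genes in RNA of mouse testis cells: the subunit genes Inha, Inhba and Inhbb, the binding protein genes Fst and Fstl3, the receptor genes Acvr1b, Acvr2a and Acvr2b, the co-receptor gene Tgfbr3, and Amh, which encodes a related hormone. They were found by matching the accession of every probe on the array to these symbols, which gave 11 of 39429 probes, 2 of them for Acvr2a and 1 for each other gene. Of the 10 genes, 8 had a probe that was well above background on every array of 1 or more of the 4 groups and were tested among 25027 genes. Acvr1b and Amh did not pass this filter and are given as levels only. The filter keeps a gene that is bright in 1 group alone, so the 8 are not a sample of all 10.

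The series compared mice lacking TAp73, the longer form of p73, a relative of the p53 transcription factor, with mice recorded as wildtype. All 6 animals were male C57BL/6J mice, and each gave 2 cell preparations, labelled Sertoli cells and germ cells (titled a pellet), with 1 array for each. The 4 groups of 3 arrays were therefore knockout Sertoli, control Sertoli, knockout germ and control germ. Knockout mice were 120, aged 4 months, and 86 and 72, aged 8 months. Control mice were 99, aged 5 months and titled WT, and 73 and 74, aged 8 months and titled het although their source name reads wildtype. The sources used here do not describe the knockout allele, whether all cells carry it, or how the testis was separated into the 2 preparations. Every slide held both preparations of 1 knockout and 1 control mouse: 120 and 99 on slide 1, 86 and 73 on slide 2, 72 and 74 on slide 3.

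Activins are dimers of the beta subunits encoded by Inhba and Inhbb. They bind the type II receptors encoded by Acvr2a and Acvr2b, which recruit the type I receptor encoded by Acvr1b, and the signal passes to the nucleus through SMAD2 and SMAD3. A beta subunit joined to the alpha subunit, encoded by Inha, gives inhibin, which holds the type II receptors with the help of betaglycan, the product of Tgfbr3. Follistatin and the follistatin-like protein FSTL3 bind activin outside the cell and keep it from its receptors. In the adult testis, Sertoli cells are the known main source of inhibin B, which lowers follicle-stimulating hormone release from the pituitary, and anti-Müllerian hormone is a Sertoli product of fetal and immature life.

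The promoters of the 3 subunit genes are shown because these genes were distributed in opposite ways between the preparations, Inhba and Inhbb on one side and Inha on the other. Each window runs from 250 bases before to 50 bases after the start given by RefSeq on build GRCm38.p6. It lies at chr1:75507359-75507658 on the plus strand for Inha, chr13:16011601-16011900 on the plus strand for Inhba and chr1:119422199-119422498 on the minus strand for Inhbb. Capitals mark the letters of a motif found by search.
Inha: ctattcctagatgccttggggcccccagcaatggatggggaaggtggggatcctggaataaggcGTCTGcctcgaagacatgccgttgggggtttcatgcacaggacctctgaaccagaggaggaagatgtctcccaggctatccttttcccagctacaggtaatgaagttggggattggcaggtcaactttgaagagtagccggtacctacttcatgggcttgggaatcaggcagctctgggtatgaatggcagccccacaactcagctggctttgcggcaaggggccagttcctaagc
Inhba: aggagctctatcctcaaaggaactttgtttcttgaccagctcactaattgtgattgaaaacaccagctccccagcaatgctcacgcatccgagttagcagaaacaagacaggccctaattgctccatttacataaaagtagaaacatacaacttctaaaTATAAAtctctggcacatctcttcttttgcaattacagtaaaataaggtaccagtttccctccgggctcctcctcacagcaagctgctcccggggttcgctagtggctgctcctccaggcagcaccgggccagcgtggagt
Inhbb: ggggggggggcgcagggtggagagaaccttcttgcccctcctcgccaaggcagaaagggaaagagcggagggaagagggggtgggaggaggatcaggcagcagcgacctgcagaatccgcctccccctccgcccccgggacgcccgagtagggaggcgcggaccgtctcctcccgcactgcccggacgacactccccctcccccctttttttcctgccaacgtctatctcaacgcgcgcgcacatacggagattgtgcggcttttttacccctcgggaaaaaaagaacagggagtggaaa

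Both strands were searched for the cyclic AMP response element TGACGTCA and its core TGACG, the AP-1 element TGANTCA, the SMAD element CAGAC, the NR5A element AAGGTCA, the GATA motif AGATAA and the TATA box TATAAA. The core lies within the full cyclic AMP element, and none of the others contains another. The Inha window held 1 SMAD element, on the minus strand, 186 bases before the start. The Inhba window held 1 TATA box, 91 bases before the start. None of these letters occurred in the Inhbb window. Among 32851 mouse promoter windows of the same length, 49.6% held a SMAD element, 13.6% a TATA box, 20.8% the core of the cyclic AMP element, 1.79% the full element, 7.81% an AP-1 element, 4.72% an NR5A element and 11.2% the GATA motif. Inha and Inhbb both lie on chromosome 1, with 213 protein-coding genes between them. Of the other genes with a window, Fstl3 held SMAD elements 161 and 14 bases before its start and a TATA box 29 bases before it, all on the minus strand. Acvr2a and Acvr2b each held 1 SMAD element, 188 and 233 bases before their starts, and Acvr1b held none of these letters.

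Levels below are log2 of the processed signal minus the 75th percentile of the same array, so 0 is a probe as bright as that percentile. The 75th percentile was 1355 to 5350 signal units, and 64.1% to 78.9% of probes were well above background on an array. Trp73 had 3 probes, all well above background on all 6 knockout arrays and all with a higher mean in knockout than in control mice in both preparations. The probe used in the fit, which had the smallest gap between genotypes of the 3, lay at -2.91 to -2.72 in knockout and -4.01 to -2.13 in control Sertoli fractions, and at -2.79 to -1.91 in knockout and -4.28 to -2.68 in control germ cells. Where these probes lie relative to the deletion is not given in the sources used here, so they check nothing about it, and knockout and control are used as the labels' words. No probe of the 10 genes was saturated.

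The labels of the preparations were checked against cell markers, since every level of the axis depends on which cells were present. In both genotypes all tested markers of germ cells in meiosis and after it fell in the Sertoli fraction relative to germ cells: 9 of spermatocytes, 7 of round and 7 of elongating spermatids. All 6 fibroblast markers and all 6 peritubular myoid markers were higher in the Sertoli fraction, with median log2 differences of 7.33 and 5.78 in control mice. The Sertoli markers did not follow the label: of 14 tested in control mice, 6 were higher in the Sertoli fraction and 6 lower. Fshr, the receptor for follicle-stimulating hormone, was not well above background on any of the 6 Sertoli arrays. The summed level of 13 Sertoli markers, in units of the 75th percentile, was 49.6 to 59.4 in knockout and 37.9 to 55.8 in control Sertoli fractions, against 86.2 to 119 in knockout and 62.6 to 78.0 in control germ cells. The name Sertoli fraction is kept below only as a label.

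The subunit genes were spread unequally over the 2 preparations. Inhba and Inhbb were higher in the Sertoli fraction in both genotypes, while Inha was lower there, as the plot of levels by array shows. In RNA of mixed cells, fewer cells of a type and less RNA in each cell cannot be told apart. Of the 8 tested genes in control mice, 5 were higher in the Sertoli fraction and 2 lower, among 39.8% higher and 36.5% lower of all genes. In knockout mice 6 were higher and 1 lower, among 37.9% and 37.1% of all genes. Calls are at an adjusted p under 0.05 from limma with Benjamini-Hochberg adjustment over all 25027 genes. Since most genes on the array were called in 1 direction or the other, these counts say little about the axis, and the sizes of the differences follow gene by gene. The median difference of the 8 genes was 3.13 in knockout and 3.16 in control mice, beside 0.09 and 0.21 over all genes.

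**Figure D1:**
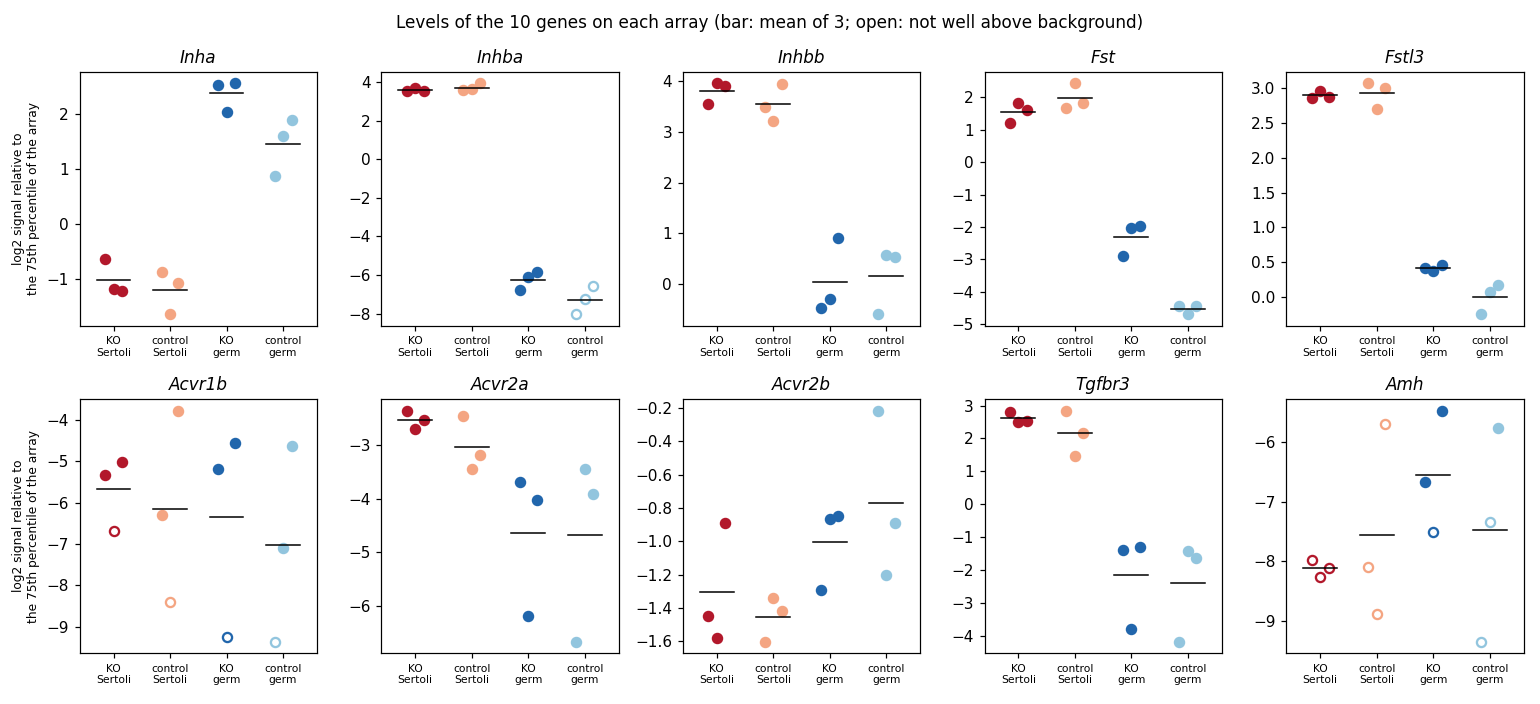
Level of each of the 10 genes on the 12 arrays, as log2 signal relative to the 75th percentile of the array (each panel has its own vertical scale). Points are arrays, ordered by slide 1 to 3 within a group, bars are means of 3, and open points are arrays where the probe was not well above background. Inha is the only tested subunit gene that lies higher in germ cells, and Fst separates knockout from control germ cells.

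Inhba, the activin A subunit, had the widest range of the 10 genes. Its level was 3.54, 3.70 and 3.55 in the Sertoli fractions of knockout mice 120, 86 and 72, and 3.57, 3.65 and 3.94 in those of control mice 99, 73 and 74. Its level was -6.79, -6.10 and -5.82 in knockout germ cells and -8.04, -7.24 and -6.58 in control germ cells. The Sertoli fractions lay close together and far above every germ cell array. The 3 control germ arrays were not well above background, so the fold in control mice is a bound for this scaling only. It was at least 1681-fold higher in the Sertoli fraction, or 10.72 in log2 units. For that bound each germ array was given the higher of its own level and the dimmest level well above background on it. The measured difference in control mice was 11.01 ± 0.35 (adjusted p = 4.22e-10, limma). With normexp background correction it was 8.83, which lies under the bound. In knockout mice the difference was 9.84 ± 0.35 (SE of the fit, n = 3 a group, adjusted p = 9.29e-10, limma).

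Inhbb, the activin B subunit and the beta chain of inhibin B, was high in the Sertoli fraction but was also measured in germ cells. Its level was 3.56, 3.96 and 3.91 in knockout and 3.49, 3.21 and 3.95 in control Sertoli fractions. In germ cells it was -0.47, -0.31 and 0.90 in knockout and -0.60, 0.56 and 0.52 in control mice. Every Sertoli array lay above every germ array, while the genotypes overlapped in both preparations. The Sertoli fraction exceeded germ cells by 3.77 ± 0.41 in knockout mice (adjusted p = 6.35e-06, limma) and 3.39 ± 0.41 in control mice (adjusted p = 1.46e-05).

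Inha, the inhibin alpha subunit, ran the other way. Its level was -0.65, -1.18 and -1.22 in knockout and -0.87, -1.64 and -1.08 in control Sertoli fractions. In germ cells it was 2.52, 2.03 and 2.55 in knockout and 0.87, 1.60 and 1.89 in control mice. All 6 mice had less in the Sertoli fraction, with a fall of 3.38 ± 0.31 in knockout mice (log2 difference -3.38, adjusted p = 1.51e-06, limma) and of 2.65 ± 0.31 in control mice (-2.65, adjusted p = 1.12e-05). Within a mouse the difference was -3.16, -3.21 and -3.77 in knockout mice 120, 86 and 72 and -1.74, -3.24 and -2.97 in control mice 99, 73 and 74, with overlap between the genotypes. In control mice the 14 Sertoli markers as a list ran in both directions, as given above, with Amhr2, the receptor for anti-Müllerian hormone, at -4.40 and Sox9, a transcription factor of Sertoli cells, at 1.43. Their part in the level of Inha was not tested.

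Fst, which encodes follistatin, was higher in the Sertoli fraction in every mouse. Its level was 1.21, 1.83 and 1.60 in knockout and 1.68, 2.43 and 1.82 in control Sertoli fractions. In germ cells it was -2.91, -2.02 and -1.98 in knockout and -4.44, -4.69 and -4.45 in control mice. The 3 knockout germ arrays lay above the 3 control germ arrays without overlap, whereas the Sertoli fractions overlapped between genotypes. The Sertoli fraction exceeded germ cells by 3.85 ± 0.29 in knockout mice (adjusted p = 3.39e-07, limma) and by 6.50 ± 0.29 in control mice (adjusted p = 4.41e-09). Within a mouse this gap was 4.11, 3.85 and 3.58 in knockout and 6.12, 7.12 and 6.27 in control mice. Tested between genotypes as an interaction, described below, the gap did not pass (adjusted p = 0.196, limma).

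Fstl3, the second activin binder, had the smallest standard error of the 8 tested genes. Its level was 2.85, 2.97 and 2.87 in knockout and 3.07, 2.71 and 3.00 in control Sertoli fractions, and 0.42, 0.37 and 0.46 in knockout and -0.25, 0.06 and 0.18 in control germ cells. The difference between preparations was 2.48 ± 0.17 in knockout mice (adjusted p = 1.33e-07, limma) and 2.93 ± 0.17 in control mice (adjusted p = 3.05e-08). All 6 Sertoli arrays lay above all 6 germ arrays.

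**Figure D2:**
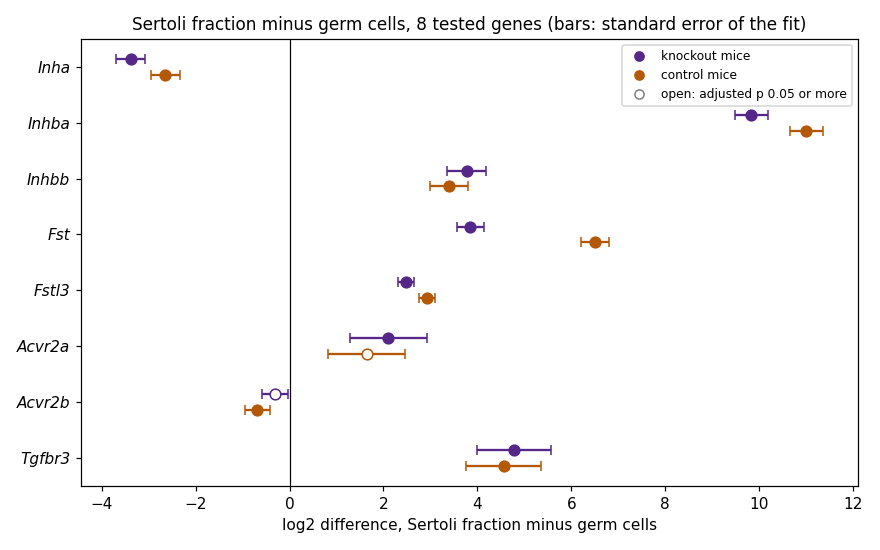
Difference between the Sertoli fraction and germ cells for the 8 tested genes, in log2 units, for knockout and control mice. Points are fitted differences over 3 mice a genotype, bars are standard errors of the fit and open points have an adjusted p of 0.05 or more. Inha and Acvr2b lie below 0, and the control value of Inhba (11.01) rests on germ arrays that were not well above background.

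The receptors were measured less evenly. Tgfbr3 had 2.80, 2.50 and 2.54 in knockout and 2.84, 1.47 and 2.15 in control Sertoli fractions, and -1.38, -3.81 and -1.31 in knockout and -4.17, -1.41 and -1.62 in control germ cells. The germ arrays of mice 86 and 99 lay more than 2 log2 units below the other 4, and the 2 mice are of opposite genotype and on different slides. The Sertoli fraction was higher by 4.78 ± 0.79 in knockout mice (adjusted p = 0.000205, limma) and 4.56 ± 0.79 in control mice (adjusted p = 0.000286).

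Acvr2a, a type II receptor that binds activin and, with betaglycan, inhibin, repeated that pattern on the brighter of its 2 probes. Its level was -2.36, -2.70 and -2.53 in knockout and -2.47, -3.45 and -3.18 in control Sertoli fractions. In germ cells it was -3.69, -6.19 and -4.03 in knockout and -6.67, -3.45 and -3.91 in control mice, so that mice 86 and 99 were again the low pair. The difference between preparations was 2.10 ± 0.82 in knockout mice (adjusted p = 0.0359, limma) and 1.64 ± 0.82 in control mice, which did not pass (adjusted p = 0.0883). Without mouse 86 the knockout difference was 1.41 (adjusted p = 0.191), without mouse 120 it was 2.49 (adjusted p = 0.0596) and without mouse 72 it was 2.41 (adjusted p = 0.0765). Without mouse 99 the control difference was 0.36 (adjusted p = 0.664), and without mouse 73 it was 2.46 (adjusted p = 0.0475). Over all arrays it passed with normexp background correction (1.92, adjusted p = 0.0186) and quantile normalisation (2.21, adjusted p = 0.0136). It also passed with median centring (2.31, adjusted p = 0.00900) and the authors' deposited table (2.14, adjusted p = 0.0148). Without both mice titled het, mouse 99 was the only control left, and the difference was its own, 4.20. So the control call turns on the scaling and on single mice. The second Acvr2a probe was not kept. It was well above background on 2 knockout and 1 control Sertoli arrays and on 1 knockout and 1 control germ array.

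Acvr2b, the other type II receptor, differed little between preparations. Its level was -1.45, -1.58 and -0.89 in knockout and -1.60, -1.34 and -1.42 in control Sertoli fractions, and -1.29, -0.87 and -0.85 in knockout and -0.22, -1.20 and -0.89 in control germ cells. It fell by 0.68 ± 0.28 in the Sertoli fraction of control mice (-0.68, adjusted p = 0.0422, limma), and the difference in knockout mice was -0.30 ± 0.28 (adjusted p = 0.339). The control call was lost with all arrays under slide as a fixed block (adjusted p = 0.0516), quantile normalisation (0.117), the authors' deposited table (0.113), normexp (0.258) and no filter (0.0617). Without mouse 99 the difference was -0.33 (adjusted p = 0.320), and without mouse 74 it was -0.76 (adjusted p = 0.0812). Without mouse 73 it was -0.96 and passed (adjusted p = 0.0269). Knockout mice enter only through the shared spread, and without mouse 120, 86 or 72 the adjusted p was 0.0597, 0.0594 and 0.0460. With each array centred on its median the control difference was -0.01 and the knockout difference turned positive, at 0.55.

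Acvr1b and Amh were too dim to test. Acvr1b, the type I activin receptor, was well above background on 2 of 3 arrays in each group, at -6.69 to -5.03 in knockout and -8.39 to -3.78 in control Sertoli fractions, and at -9.25 to -4.57 in knockout and -9.35 to -4.64 in control germ cells. The 4 groups overlapped. Amh was not well above background on any of the 6 Sertoli arrays. It was well above background on 2 of 3 knockout germ arrays, at -6.67 and -5.47 in mice 120 and 72, and on 1 of 3 control germ arrays, at -5.76 in mouse 74.

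The other genes of the pathway gave the setting of these levels. The 6 lists of other ligands, receptors, extracellular binders and processing enzymes, SMAD proteins with their regulators, SMAD2/3 response genes and gonadal regulators held 77 genes, of which 65 were tested. In knockout mice 39 were higher and 8 lower in the Sertoli fraction, beside 37.9% and 37.1% of all genes. In control mice 42 were higher and 10 lower, beside 39.8% and 36.5% of all genes, and the counts by list below are read against the same shares. Values in this paragraph are for control mice. Tgfb2 and Tgfb3, ligands of the same superfamily, were higher by 7.73 and 5.63, and Gdf9, the germ cell ligand, fell by 3.40 (-3.40). Among receptors, 7 of 9 were higher, with Tgfbr2 at 6.21 and Acvr1 at 4.54, while Amhr2 alone fell. Among binders and processing enzymes 10 of 11 were higher, including Fstl1 (8.16) and Ltbp1 (5.92), which tethers latent TGF-beta to the matrix.

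Response genes of SMAD2 and SMAD3 followed the same side. Of 10 tested, 6 were higher in the Sertoli fraction of control mice, among them the feedback regulators Pmepa1 (7.79) and Smad7 (5.49), Ccn2 (5.50) and Lefty1 (5.29), with Smad3 itself at 3.26. Of the 10, 2 fell, among them Lefty2 (-2.65). Of the gonadal regulators, 5 of 12 were higher, with Sox9 at 1.43, and 4 fell, among them Crem, a cyclic AMP responsive factor of spermatids (-5.10). The summed level of the 6 fibroblast markers was 254 to 394 in knockout and 277 to 622 in control Sertoli fractions, against 2.98 to 4.37 in knockout and 1.69 to 2.72 in control germ cells. That of the 6 myoid markers was 287 to 427 in knockout and 410 to 604 in control Sertoli fractions, against 21.2 to 22.3 in knockout and 20.8 to 24.5 in control germ cells. Their part in the levels of Inhba, Inhbb, Fst and the response genes was not tested.

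Knockout germ cells held more Fst RNA than control germ cells, at -2.30 ± 0.52 against -4.53 ± 0.14 (mean ± SD, n = 3 each). Fst rose by 2.22 ± 0.29 in log2 units, a 4.67-fold higher signal in knockout than in control mice (adjusted p = 0.0167, limma, n = 3 a group). It was the only one of the 8 tested genes that passed, among 0.22% of all genes called in either direction (54 genes that rose and 1 that fell). Within slides 1, 2 and 3 the Fst difference was 1.54, 2.67 and 2.47. The size was steadier than the call. Over all 12 arrays Fst did not pass with normexp background correction (1.87, adjusted p = 0.0983) or median centring (2.11, adjusted p = 0.0717). With the spread taken from the 6 germ arrays alone its adjusted p was 0.240. The difference was 2.06 to 2.52 when any 1 mouse was left out, and the adjusted p was 0.00658 without mouse 120, 0.202 without 86, 0.249 without 72, 0.142 without 99, 0.140 without 73 and 0.0704 without 74.

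Inha, Inhba and Fstl3 were also higher in knockout germ cells on average, but none passed after adjustment. Inha differed by 0.92 ± 0.31 (adjusted p = 0.394, limma), and its 3 knockout arrays, 2.03 to 2.55, lay above its 3 control arrays, 0.87 to 1.89. Within slides the Inha difference was 1.65, 0.43 and 0.66. Fstl3 differed by 0.42 ± 0.17 (adjusted p = 0.579) without overlap, and by 0.67, 0.31 and 0.28 within slides.

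Inhba was well above background on all 3 knockout germ arrays and on none of the 3 control germ arrays. With the control arrays set as for the bound above, it was 1.69-fold (0.75 in log2 units) higher in knockout germ cells. This value is no firm minimum. The measured difference was 1.04 ± 0.35 (adjusted p = 0.386, limma), against 0.33 with normexp background correction and 0.67 without mouse 99. None of these passed. Its ranges overlapped, at -6.79 to -5.82 in knockout and -8.04 to -6.58 in control germ cells. Of the 8 tested genes, 3 (Inha, Fst and Fstl3) had knockout arrays above control arrays without overlap, beside 6.57% of all genes, and 0 lay below without overlap, beside 9.14%. At an unadjusted p under 0.05, 4 of the 8 were higher, beside 6.11% of all genes, and none was lower. In each alternative analysis run, the differences of Fst, Inha, Inhba and Fstl3 remained above 0.

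For the other 4 tested genes no difference was detected. The germ cell difference was -0.12 ± 0.41 for Inhbb, 0.24 ± 0.79 for Tgfbr3 and -0.23 ± 0.28 for Acvr2b (adjusted p = 0.997 for each, limma), and 0.04 ± 0.82 for Acvr2a (adjusted p = 0.99998). For Tgfbr3 and Acvr2a the within-slide differences were of opposite sign on slides 1 and 2, at 2.79 and -2.40 for Tgfbr3 and 2.98 and -2.74 for Acvr2a, since the low germ arrays belong to control mouse 99 on slide 1 and knockout mouse 86 on slide 2. For this pair the standard errors leave room for a difference of more than 1 log2 unit in either direction. The median difference of the 8 genes was 0.33, beside -0.04 over all genes.

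**Figure D3:**
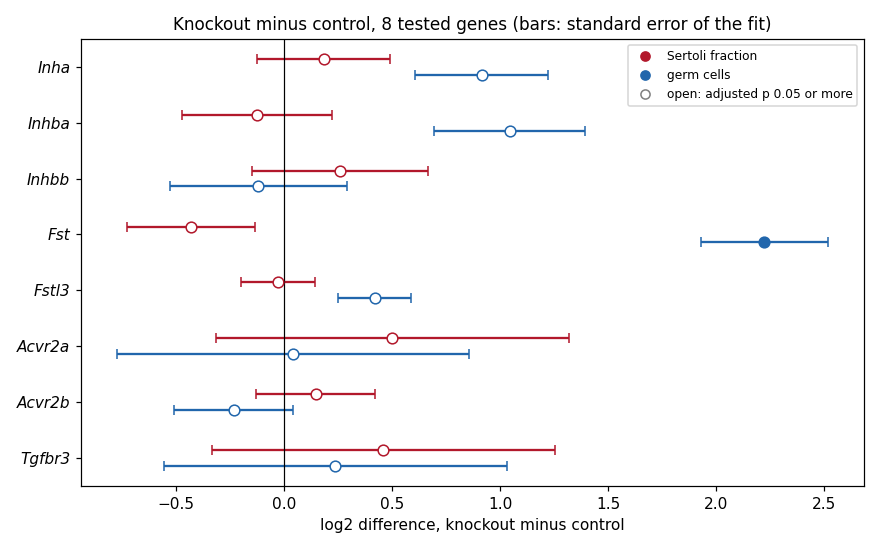
Difference between knockout and control mice for the 8 tested genes, in log2 units, in the Sertoli fraction and in germ cells. Points are fitted differences with 3 mice a genotype, bars are standard errors of the fit, and filled points have an adjusted p under 0.05. Fst in germ cells, at 2.22, is the single filled point.

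Summed markers of 4 somatic lists did not overlap between knockout and control germ cells, and those of 2 others did. The 6 fibroblast markers had a summed level of 2.98 to 4.37 in knockout and 1.69 to 2.72 in control germ cells, 5 of 6 were higher in knockout mice, and Pdgfra passed (1.25, adjusted p = 0.0359, limma). All 7 Leydig markers were higher in knockout germ cells and none passed, with sums of 11.4 to 16.4 in knockout and 5.86 to 9.79 in control mice. Of 11 macrophage and leukocyte markers 10 were higher and none passed, with sums of 2.46 to 4.39 in knockout and 2.02 to 2.07 in control germ cells. Of 14 Sertoli markers 13 were higher and none passed, with sums of 86.2 to 119 in knockout and 62.6 to 78.0 in control germ cells. No marker of these 4 lists was below background on all 3 arrays of either germ cell group. Their median differences were 0.87, 1.34, 1.06 and 0.48 in the order given, beside -0.04 over all genes. The 6 peritubular myoid markers summed to 21.2 to 22.3 in knockout and 20.8 to 24.5 in control germ cells, and the 6 endothelial markers to 3.05 to 3.75 in knockout and 2.76 to 3.68 in control germ cells, with 5 and 6 of them higher in knockout mice and none passing. Of the germ cell lists, the 7 round spermatid markers did not overlap either, in the other direction. They summed to 55.9 to 66.4 in knockout and 68.6 to 80.8 in control germ cells, with 6 lower in knockout mice and none passing. Sums of spermatogonia, spermatocyte and elongating spermatid markers overlapped. The part of all these markers in the rise of Fst and in the values of Inha, Inhba and Fstl3 was not tested.

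Among the other pathway genes, Ltbp1 rose in knockout germ cells, by 1.40 ± 0.23 (adjusted p = 0.0445, limma). It was the only one of 65 that passed, beside 0.22% of all genes called in either direction. A positive difference was seen in 46 of 65, and the median was 0.19, beside -0.04 over all genes. Leaving out mouse 120 gave 1.61 (adjusted p = 0.0270), and leaving out mouse 86, 72, 99, 73 or 74 gave 1.19 to 1.45 with adjusted p values of 0.405, 0.371, 0.257, 0.397 and 0.0807. With all arrays the call was also lost with slide as a fixed block (adjusted p = 0.0816), normexp (0.580), median centring (0.290), no filter (0.0857) and every kept probe tested (0.0512). Its relative Ltbp2 differed by 1.02 (adjusted p = 0.129), the activin and BMP type I receptor gene Acvr1 by 1.23 (adjusted p = 0.448) and Acvrl1 by 0.49 (adjusted p = 0.564).

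The ligand genes Tgfb1 and Bmp4 differed by 0.96 and 0.60, Smad3 and the inhibitory Smad7 by 0.69 and 0.56, and the response genes Lefty1 and Ccn2 by 0.71 and 0.55. Of the gonadal regulators, Fshr differed by 0.72 and Wt1 by 0.45. None of these 8 passed the threshold, with adjusted p values of 0.253 to 0.721 (limma). The plot of germ cell differences by list shows positive values for 8 of 9 receptors and 10 of 11 binders and processing enzymes. They were also seen for 11 of 15 SMADs and regulators, 6 of 10 response genes and 9 of 12 gonadal regulators. Of the other ligands 5 of 12 were positive, with a median of -0.05.

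**Figure D4:**
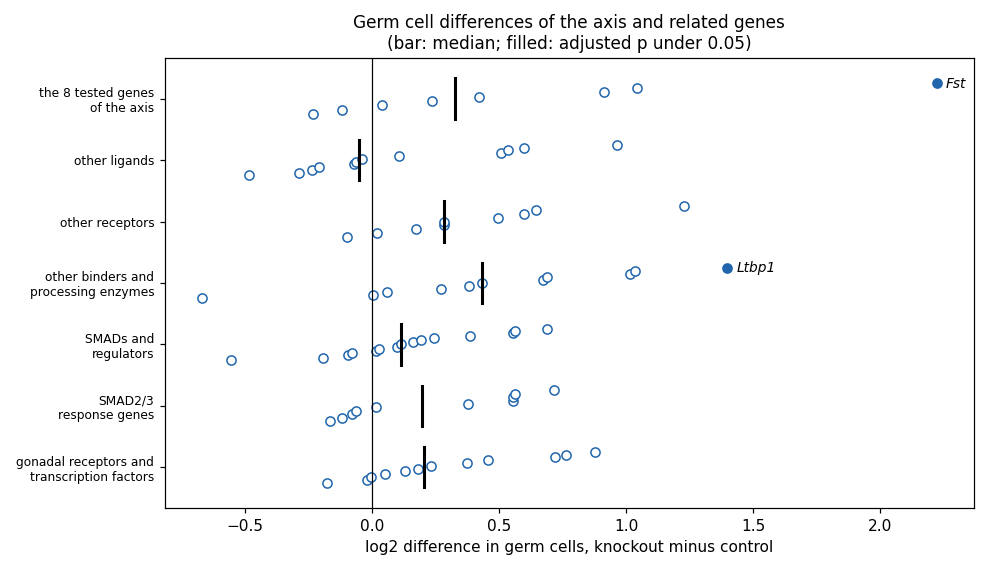
Germ cell difference between knockout and control mice, in log2 units, for the 8 tested genes of the axis and for the tested genes of 6 related lists. Each point is a gene, the bar is the median of the list, and filled points have an adjusted p under 0.05. Fst (2.22) and Ltbp1 (1.40) are the 2 filled points, and medians run from -0.05 for other ligands to 0.43 for other binders and processing enzymes.

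In the Sertoli fraction no difference between genotypes was detected in the axis. None of the 8 genes passed, among 0% of all 25027 genes (756 had an unadjusted p under 0.05, none of them a gene of the axis). The difference was 0.18 ± 0.31 for Inha, -0.13 ± 0.35 for Inhba, 0.26 ± 0.41 for Inhbb, -0.03 ± 0.17 for Fstl3, 0.50 ± 0.82 for Acvr2a, 0.15 ± 0.28 for Acvr2b and 0.46 ± 0.79 for Tgfbr3 (adjusted p = 0.9997 for each, limma). Fst was lower in knockout mice within each slide, by values of -0.47, -0.60 and -0.22, and its fitted difference of -0.43 ± 0.29 missed the threshold (adjusted p = 0.9997). This value was below 0 in each alternative analysis run, at -0.58 to -0.13, and passed in none. Relative to the median of all genes, it ran from -0.35 to 0.06 over the scalings tried, above 0 only with normexp. None of the 8 genes had knockout arrays wholly above or wholly below the control arrays, beside 1.86% and 4.84% of all genes. None of the 65 other pathway genes passed either, and 5 had an unadjusted p under 0.05.

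Whether the genotype difference itself differed between preparations was tested as an interaction. None of the 8 genes passed, among 0.00799% of all genes. An unadjusted p under 0.05 was found for 2 of the 8, beside 1145 of all 25027 genes. Fst came nearest, with a difference in the Sertoli fraction that was lower by 2.65 ± 0.42 than that in germ cells (-2.65, adjusted p = 0.196, limma), followed by Inhba at -1.17 ± 0.49 (adjusted p = 0.999). Relative to the median of all genes, the Fst value was -2.72 to -1.66 over the scalings tried. That of Inhba was -1.08 to 0.31, above 0 only with normexp. Without taking off that median, the Inhba value was -1.78 to -0.24 over all alternatives. So the rise of Fst in germ cells and its absence among the calls of the Sertoli fraction were not shown to differ.

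For each tested gene the 3 named genes with the most similar pattern were found among 16465, by the root mean square difference over the 12 arrays after centring each gene on its mean. For Fst, whose own spread about its mean was 2.73, these were Rab7b (0.219), Tspan4 (0.317) and Rab32 (0.331). Rab7b rose in knockout germ cells by 2.33 (adjusted p = 0.0154, limma), while Tspan4 and Rab32 differed by 1.64 and 1.65 and did not pass (adjusted p = 0.0560 and 0.0944). All 3 were picked for likeness to Fst on these same arrays, so their differences are not separate evidence. For Inhba they included Sfrp2 (0.460) and Ccdc80 (0.538), and for Inhbb Ctps (0.305), Mmp19 (0.314) and Txnrd1 (0.332). For Inha they were Slc26a7 (0.280), Wnk4 (0.285) and Entpd6 (0.303), all with less signal in the Sertoli fraction.

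Fstl3 had the closest matches, Mboat7 (0.103), Akr1a1 (0.123) and Cdkn1b (0.124), beside a spread of its own of 1.37. The nearest to Tgfbr3 were Ddah1 (0.309), Zfp799 (0.310) and Creb3l2 (0.337). Nearest to Acvr2a were Tfdp1 (0.161), Zfp507 (0.203) and Srsf9 (0.216), and nearest to Acvr2b were Rhebl1 (0.155), Dcaf17 (0.166) and Tti1 (0.172). These values are not scaled to a gene's own spread, which was 2.51 for Tgfbr3, 1.33 for Acvr2a and 0.385 for Acvr2b. The 12 arrays behind each value come from 6 mice, and they share the step between the 2 preparations.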

How the data were processed

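RNA of 12 testis cell preparations was measured on 1-colour Agilent mouse arrays. Per the labels' protocols, RNA was extracted with Trizol and labelled with Cy3. Per the file headers, Agilent Feature Extraction 10.7.3.1 made the spot values from the scans, with a grid that names build mm9. The deposited intensity used here, the processed signal, had its background subtracted by that software. A log2 table of the same arrays by the authors, whose 12 columns share a median of 8.29 and whose normalisation is not given in the sources used here, served as an alternative. The submitters' processing notes name limma.

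Control spots and outlier spots were left out, and spots of a probe averaged. Each array was taken as log2 and its 75th percentile subtracted. Of 39429 probes, 26049 were named by accession through RefSeq (GRCm38.p6, used for names, gene order and promoters only). A probe was kept if it was well above background on every array of 1 or more groups (30530 probes), and the brightest probe stood for each of 25027 genes. The 4 group means were fitted with limma 3.58.1 in R 4.3.3 over all 12 arrays, with Benjamini-Hochberg adjustment over all genes and a threshold of 0.05. The code was tested on simulated data. Precision is limited by 3 mice a group, and p-values measure the spread between these mice.

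Groups follow the source names. The 2 preparations of a mouse are paired by mouse number. Their deviations from group means correlated at 0.26, 0.28 and 0.20 in knockout mice 120, 86 and 72 and at -0.16, -0.12 and 0.46 in control mice 99, 73 and 74. Mouse as a block was an alternative only, so the main comparisons of the preparations did not use this pairing. As a fixed block it cannot enter the genotype comparisons, since each mouse has 1 genotype. The members and lists were chosen with earlier results of these data known. All 10 members are named, with any listed pathway gene past the threshold or otherwise the 2 of smallest p, and the 3 genes most like each member. Alternatives changed the background correction (normexp on the median spot signal), scaling, filter, probe summary, blocks and mice. A few listed genes are not reported here. Promoter sequences of Fst, Tgfbr3 and Amh were not used here.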

Additional observations from a re-analysis of the deposited data

How the results depend on the processing

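Of 771 recomputed values of the 8 tested genes, 739 stayed on the same side of the threshold, 26 no longer passed and 6 newly passed, and no called value changed sign. There were 47 changes of sign among values passing under neither setting, most of them in Acvr2a, Acvr2b and Tgfbr3.

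For germ cells between genotypes, 1 gene of the axis passed, and 0 passed with normexp, with median centring, with only the 6 germ arrays, with only the 8-month mice and without both mice titled het; leaving out 1 mouse gave 0 to 1. The Fst difference was 1.87 to 2.57 over all alternatives, with adjusted p of 0.00658 to 0.249. Of all genes 55 passed, against 3 with normexp, 28 with median centring, 28 with no filter, 1 with only the 6 germ arrays, 1 with only the 8-month mice and 1 without the mice titled het, and 3 to 130 when 1 mouse was left out. In the Sertoli fraction 0 of all genes passed, against 1 in the authors' table and 5 without the mice titled het, and 0 to 5 when 1 mouse was left out. For the interaction 2 genes passed, against 0 with normexp, 1 with quantile normalisation, 1 with median centring, 1 in the authors' table, 4 with only probes above background on all 12 arrays, 0 with mouse as a fixed replicate block, 0 with only the 8-month mice and 0 without the mice titled het, and 0 to 3 when 1 mouse was left out. Fewer arrays leave fewer degrees of freedom, and without the mice titled het mouse 99 was the only control. The cause of the other changes was not tested. No fixed mouse block was possible for the genotype comparisons, since each mouse has 1 genotype, and Inhba has no value with only probes above background on all 12 arrays. Mouse as a random block changed no call of the 8 genes, and as a fixed block it took the control difference of Acvr2b out of the calls (-0.68, adjusted p = 0.0566).

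Scaling moved the median of all genes, between 0.21 and 0.88 for the Sertoli fraction minus germ cells in control mice, 0.09 and 0.94 in knockout mice, -0.41 and -0.01 for genotype in the Sertoli fraction, and -0.15 and -0.04 for genotype in germ cells. Relative to that median, Fst differed by 1.92 to 2.40 between genotypes in germ cells, and Inha by -3.13 to -2.86 between preparations in control mice. Signal near background limits Acvr1b, Amh, Inhba in control germ cells and the second Acvr2a probe.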
